A study of Mus musculus with 8 samples.

Results

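The genes described here move calcium into, within and out of the sarcoplasmic reticulum, the calcium store of muscle fibres. They were 10 genes chosen by name: the pump genes Atp2a1 and Atp2a2, the pump regulator genes Sln and Pln, the calcium-binding store genes Casq1 and Casq2, the release channel gene Ryr1, the voltage sensor gene Cacna1s, and the junction genes Jph1 and Jph2. Every probe that carried 1 of these names on the array was kept, which gave 15 probes for the 10 genes, out of 56605 probes and 37074 gene names. Of the 10 genes, 7 had 1 probe, Atp2a2 and Ryr1 had 3 each, and Casq2 had 2. The rule used gene names and no signal or change.

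RNA labelled as brown adipose tissue came from 8 C57BL/6J mice, 12 weeks old and male by the study's methods, with 1 one-color array per mouse. The 4 Co mice had received 100 μL of saline into a vein, and the 4 Pg mice the same volume with sonicated P. gingivalis, an oral bacterium linked to periodontal disease, at a dose that the labels print as 108 CFU and the methods give as 10 to the power of 8 CFU. Tissue was taken 18 h later, so the comparison asks what a single dose of bacterial material had changed by then. No allele, transgene or other treatment was named for either group.

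In a skeletal muscle fibre, an electrical signal reaches the voltage sensor in the surface membrane, which opens the ryanodine receptor in the facing membrane of the sarcoplasmic reticulum and lets calcium out to start contraction. The SERCA pumps return the calcium and use ATP to do so, and small membrane peptides hold the pumps back. Atp2a1 is the pump gene of fast-twitch fibres, and Atp2a2 that of slow-twitch fibres and the heart. In muscle, sarcolipin, the product of Sln, lets the pump split ATP and release heat with less calcium moved, which is 1 way a muscle warms the body. Fat cells have no sarcoplasmic reticulum but have an endoplasmic reticulum, in which SERCA2 is among the pumps. Which cells of the tissue gave the signal of Atp2a1 was not tested.

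The probe of Ucp1, the gene that defines the brown adipocyte, was well above background on 0 of the 8 arrays, and so were those of Elovl3, Slc27a2 and Bmp8b, which made 4 of the 12 brown adipocyte genes listed. Another 7 of the 12 were well above background on all 8 arrays, among them Cidea at a mean of 13.44 in Co, and Cox8b, which muscle also expresses, at 17.94. The same held for all 10 adipocyte genes listed, such as Fabp4 at 16.29 in Co, and for all 10 fast-twitch and all 8 slow-twitch fibre genes. The summed signal of the fast-twitch list lay between 21.11 and 21.25 (log2) in Co and between 21.09 and 21.21 in Pg, that of the slow-twitch list between 20.99 and 21.07 in Co and between 21.03 and 21.08 in Pg. These sums are carried by probes at the top of the quantile normalization, such as Tnnt3 and Tnni2 (18.84 and 18.81 on every Pg array), which leaves them little room to move, so nothing is read from them. The RNA was a bulk extract, in which fewer fibres of a kind and less RNA per fibre cannot be told apart. All arrays shared 1 slide and 1 scan, but row 1 of the slide held Co mice only and row 2 Pg mice only, so position and group cannot be told apart. Probes well above background numbered 34760 to 35831 per Co array and 31132 to 34063 per Pg array.

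The probes on which the results turn are given as the array file lists them, each with the mm9 position that the file gives. The first 4 are shown because the pump genes are compared with each other and the 3 Atp2a2 probes lie at different places in the transcript.

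Atp2a1, A_51_P244856 (NM_007504), chr7:133591703-133591762, minus strand: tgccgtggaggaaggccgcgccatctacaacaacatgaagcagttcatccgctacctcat
Atp2a2, A_51_P451075 (NM_009722), chr5:122903704-122903763, minus strand: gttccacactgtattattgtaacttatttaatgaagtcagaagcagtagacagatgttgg
Atp2a2, A_52_P168097 (NM_009722), chr5:122910660-122910719, minus strand: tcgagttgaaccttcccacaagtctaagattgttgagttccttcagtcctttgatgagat
Atp2a2, A_52_P569001 (NM_001110140), chr5:122906850-122906909, minus strand: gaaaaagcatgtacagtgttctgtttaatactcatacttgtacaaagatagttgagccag

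The next 3 are the probe of Jph1, which fell, the probe of Sln, whose signal over the arrays ranked as that of a fibre gene, and the probe that stands for Casq2 in the comparisons of gene pairs. Capitals mark AATAAA or ATTAAA, the letters of common polyadenylation signals, searched on the strand of the probe, which overlap in no probe shown. Either motif was in 13.4% of all 56605 probes, each 60 bases long.

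Jph1, A_51_P351523 (NM_020604), chr1:16987562-16987621, minus strand: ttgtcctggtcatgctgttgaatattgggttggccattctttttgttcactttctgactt
Sln, A_52_P413395 (NM_025540), chr9:53701574-53701633, plus strand: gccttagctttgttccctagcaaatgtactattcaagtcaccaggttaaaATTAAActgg
Casq2, A_55_P2810256 (NM_009814), chr3:101950367-101950425, plus strand: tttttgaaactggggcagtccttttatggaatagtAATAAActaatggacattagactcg

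By the start that the array file lists, the 2 NM_009722 probes of Atp2a2 lie at base 4073 and base 2567 of their transcript. The Atp2a1 probe starts at base 2385 and the Jph1 probe at base 2206. The files do not say whether a probe lies in coding sequence or in a UTR.

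All 15 probes were well above background on all 8 arrays, and none was saturated on any. Values are log2 of the background-subtracted signal after quantile normalization, and changes are log2 of Pg over Co. The fit was limma's, with two-sided p-values and Benjamini-Hochberg q-values over the 33819 probes kept, those with a mark of well above background on 4 arrays or more. The term DEG is kept for probes whose q was below 0.1 and whose fold change exceeded 1.5, the limits of the study's methods.

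None of the 15 probes was a DEG, where 1.61% of all tested probes were. A q under 0.1 at any fold change was reached by 2 of the 15 probes, Atp2a1 and Jph1, both lower in Pg, where 6.00% of all tested probes were lower at that q. An unadjusted p under 0.05 was reached by 5 of the 15, all lower, where 16.0% of all tested probes were. Co and Pg arrays stood fully apart for 2 of the 15, both lower in Pg, where 11.0% of all tested probes were lower in that way. The median log2 fold change of the 15 probes was -0.12, and that of all tested probes was -0.04, with 57.7% of them below 0. Of the 15 probes, 10 had a negative and 5 a positive change.

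**Figure D1:**
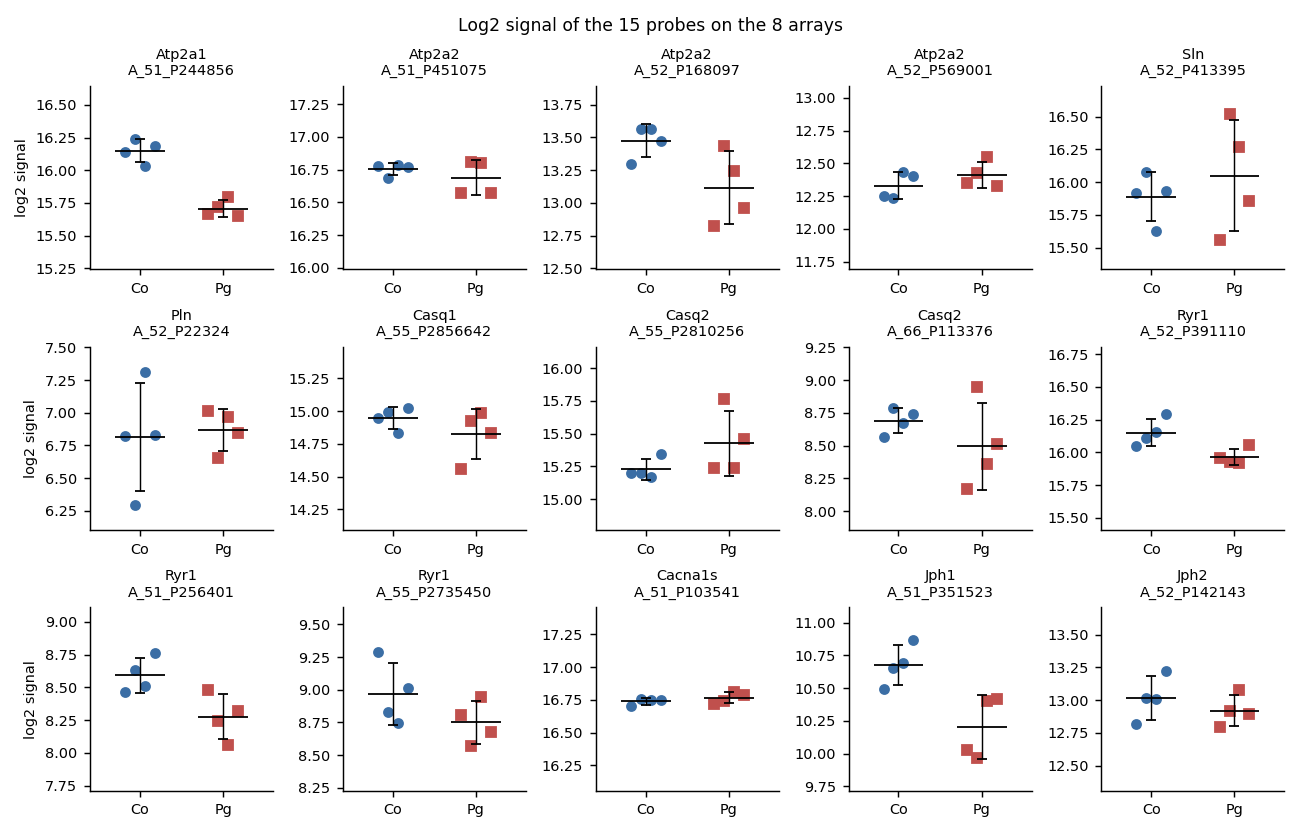
Log2 signal (y axis, a window of the same height in each panel) of each of the 15 probes on the 4 Co (circles) and 4 Pg (squares) arrays, with the group mean as a horizontal line and the SD as an error bar. The groups stand apart for Atp2a1 and Jph1 and overlap for the other 13 probes.

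The pump genes come first in the cycle of calcium return. Atp2a1, which encodes SERCA1, was lower in Pg mice. The signal of its probe was 16.14, 16.24, 16.03 and 16.18 in Co1 to Co4 and 15.67, 15.72, 15.79 and 15.65 in Pg1 to Pg4. Every Pg array was below every Co array, and the arrays within a group spanned less than the gap between the means. The change was -0.44 (SE 0.06, 95% interval -0.59 to -0.29), which is a signal 1.36-fold lower in Pg (q = 0.0411, limma, n = 4 and 4). It ranked at 123 by p among the tested probes. This q was 0.107 without array Co3 (change -0.48), 0.128 without normalization between arrays (-0.44) and 0.122 with the replicate number as a block.

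Atp2a2, which encodes SERCA2, did not move as Atp2a1 did on its brightest probe. A_51_P451075 read 16.77, 16.69, 16.79 and 16.77 in Co and 16.57, 16.81, 16.80 and 16.57 in Pg. The Pg arrays fell in 2 pairs, with Pg2 and Pg3 above every Co array and Pg1 and Pg4 below. The change was -0.07 (95% interval -0.24 to 0.11, q = 0.642, limma), an interval that ends short of the change of Atp2a1.

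The other Atp2a2 probes did not pass the test either. A_52_P168097, nearer the start of the same transcript, read 13.30, 13.57, 13.56 and 13.47 in Co and 12.82, 13.44, 13.24 and 12.96 in Pg, with a change of -0.36 (95% interval -0.68 to -0.03, q = 0.184, limma). A_52_P569001, which matches the other transcript variant, lay between 12.24 and 12.44 in Co and between 12.33 and 12.55 in Pg, with a change of 0.08 (95% interval -0.10 to 0.26, q = 0.563, limma). Set against each other within each array, these last probes differed in their change by 0.44, with every Pg difference on 1 side of every Co difference (two-sided exact permutation p = 0.0286, and 0.1 after adjustment over the 7 pairs of probes of 1 gene). That p is the smallest that 70 splits of the arrays can give.

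The pump regulators varied more between mice than between groups. The probe of Sln, the sarcolipin gene, read 15.92, 16.08, 15.63 and 15.93 in Co and 15.56, 16.52, 16.27 and 15.86 in Pg. The Pg arrays held both the highest and the lowest value of all 8. The change was 0.16 (95% interval -0.32 to 0.64, q = 0.679, limma). Phospholamban, the regulator of the pump in heart and slow-twitch fibres, is encoded by Pln. Its probe read 6.82, 6.30, 7.31 and 6.83 in Co and 7.01, 6.66, 6.97 and 6.84 in Pg, and the Pg values lay within the Co range. The change was 0.06 (95% interval -0.41 to 0.52, q = 0.891, limma), so neither interval shows that a regulator stayed the same. The interval of Sln reaches past 1.5-fold, which is 0.58 on the log2 scale.

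The store proteins are the calsequestrins, which hold calcium inside the sarcoplasmic reticulum. Casq1, the form of fast-twitch fibres, read 14.95, 14.99, 14.83 and 15.03 in Co and 14.56, 14.93, 14.98 and 14.84 in Pg. Only Pg1 lay outside the Co range, and the change was -0.12 (95% interval -0.36 to 0.11, q = 0.503, limma).

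Casq2, the form of heart and slow-twitch fibres, was read by 2 probes. A_55_P2810256 read 15.20, 15.20, 15.17 and 15.34 in Co and 15.24, 15.76, 15.24 and 15.46 in Pg, a change of 0.20 (95% interval -0.08 to 0.48, q = 0.374, limma). A_66_P113376 read 8.57, 8.78, 8.67 and 8.74 in Co and 8.17, 8.95, 8.36 and 8.51 in Pg, a change of -0.20 (95% interval -0.56 to 0.17, q = 0.498, limma). Both probes were highest on Pg2, and their deviations from the group means had an r of 0.92 over the 8 arrays, while their changes had opposite signs. Within arrays the change of the first was 0.39 above that of the second, and again Co and Pg differences stood apart (two-sided exact permutation p = 0.0286, and 0.1 after adjustment over the same 7 pairs).

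Of the Atp2a2 probes on NM_009722, the 1 nearer the transcript start had the lower change. The same order was present in 70.5% of the 4621 RefSeq accessions with at least 2 tested probes at different starts, in 72.3% of the 2064 in which both probes had a mean signal above 8, and in 61.9% of the 719 of these whose probes lay over 1000 bases apart, as those of Atp2a2 do. In the first set, the median change was -0.12 for the probe nearest the start and 0.00193 for the probe nearest the end, and the first kind of probe was also dimmer, with a median signal of 7.90 against 10.34. The part of this order in the changes of Atp2a1 and Jph1, each read by 1 probe, was not tested.

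Release starts at the ryanodine receptor, and all 3 Ryr1 probes had a negative change. A_52_P391110, on NM_009109, read 16.05, 16.11, 16.15 and 16.29 in Co and 15.95, 15.93, 15.92 and 16.05 in Pg. Only Pg4 reached into the Co range, above Co1 alone. The change was -0.19 (95% interval -0.35 to -0.03) with q = 0.165 (limma), above the threshold. The other Ryr1 probes were matched to cDNA clones and not to a RefSeq transcript. A_51_P256401 lay between 8.46 and 8.76 in Co and between 8.06 and 8.48 in Pg, with a change of -0.31 (95% interval -0.56 to -0.07, q = 0.139, limma). A_55_P2735450 lay between 8.74 and 9.29 in Co and between 8.57 and 8.95 in Pg, with a change of -0.22 (95% interval -0.53 to 0.09, q = 0.377, limma). All 3 were below 0 under every alternative in the processing and with every array left out, and the RefSeq probe passed q under 0.1 in 3 of those settings.

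Cacna1s encodes the voltage sensor of the surface membrane and was the steadiest of the genes. Its probe read 16.70, 16.75, 16.75 and 16.75 in Co and 16.72, 16.74, 16.81 and 16.79 in Pg. The change was 0.03 (95% interval -0.09 to 0.14, q = 0.775, limma), and it was -0.04 when arrays were scaled to their 75th percentile.

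Junctophilins hold the membrane of the sarcoplasmic reticulum against the surface membrane, so that sensor and channel face each other. Jph1, the skeletal muscle form, was lower in Pg mice. Its probe read 10.49, 10.65, 10.69 and 10.87 in Co and 10.02, 9.96, 10.41 and 10.42 in Pg. No Pg array reached the lowest Co array, and Pg3 and Pg4 came within 0.1 of it. The change was -0.47 (SE 0.13, 95% interval -0.78 to -0.17), which is a signal 1.39-fold lower in Pg (q = 0.0989, limma). This q lay just below the threshold, and Jph1 passed it in 2 of 16 alternatives, although the change was negative in all 16 (-0.55 to -0.39). With any 1 array other than Pg3 left out, q lay between 0.118 (without Pg4) and 0.187 (without Pg1).

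Jph2, the form of the heart that skeletal muscle also uses, read 12.82, 13.01, 13.01 and 13.22 in Co and 12.79, 12.92, 13.08 and 12.89 in Pg. The groups overlapped over most of their range, and the change was -0.10 (95% interval -0.33 to 0.13, q = 0.605, limma).

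**Figure D2:**
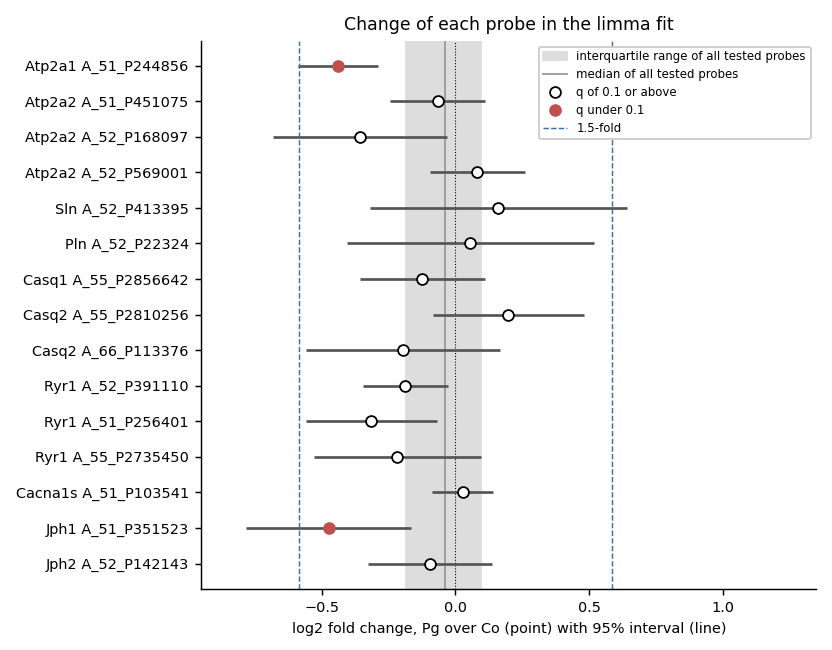
Log2 fold change of each probe, Pg over Co (x axis), with its 95% interval from the limma fit, beside the median and the interquartile range of the changes of all 33819 tested probes and the 1.5-fold limits. Atp2a1 at -0.44 and Jph1 at -0.47 have a q under 0.1, the 3 Ryr1 probes lie between -0.31 and -0.19, and no point passes 1.5-fold.

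Atp2a1 and Atp2a2, Casq1 and Casq2, and Jph1 and Jph2 are pairs of which 1 gene is typical of slow-twitch fibres or heart and the other of fast-twitch or skeletal muscle. Sln and Pln were paired as the pump regulator genes, and their difference is not read as slow against fast. Whether the genes of a pair changed unequally was tested on the difference of their log2 signals within each array, taken on the brightest probe of each gene. The size of such a difference depends on the probes and has no meaning of its own, and only its change between groups is read.

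The difference Atp2a2 minus Atp2a1 was 0.64, 0.45, 0.75 and 0.59 in Co and 0.91, 1.09, 1.01 and 0.92 in Pg. All 4 Pg values were above all 4 Co values, and the mean was 0.37 higher in Pg. The exact permutation test, two-sided, gave p = 0.0286, the smallest it can give, and 0.0571 after Benjamini-Hochberg adjustment over the 4 pairs. Jph2 minus Jph1 was 2.32, 2.36, 2.31 and 2.35 in Co and 2.77, 2.95, 2.67 and 2.48 in Pg. The Co arrays spanned less than 0.1 and every Pg array was above them, with a mean 0.38 higher and the same exact p of 0.0286, or 0.0571 adjusted.

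Casq2 minus Casq1 was 0.25, 0.21, 0.33 and 0.32 in Co and 0.68, 0.84, 0.25 and 0.62 in Pg. Pg3 lay within the Co range and the other Pg arrays above it, so that the mean was 0.32 higher in Pg (exact permutation test, p = 0.0857, and 0.114 adjusted). Pln minus Sln lay between -9.78 and -8.32 in Co and between -9.86 and -8.54 in Pg, with a difference of -0.11 in the means (exact permutation test, p = 0.743). No pair passed 0.05 after adjustment with all arrays in. With 1 array left out there are 35 splits and no p below 0.0286 before adjustment, so the p-values move in coarse steps. Without array Pg3 the pump, junctophilin and calsequestrin pairs each stood at that lowest p, or 0.0381 adjusted, with differences of 0.36 for the pumps, 0.39 for the junctophilins and 0.44 for the calsequestrins. Without Co1, Co2, Co3, Co4 or Pg2, the adjusted p of the pump and junctophilin pairs was 0.114, and without Pg1 or Pg4 it was 0.0571, and these steps are not read as a change in support.

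The pump and calsequestrin differences rested on the probe that stood for a gene, as a repeat with the other probes, added after seeing the data, showed. With A_52_P168097 for Atp2a2, the pump difference was 0.083 (exact permutation test, adjusted p = 0.743), and with A_52_P569001 it was 0.52 (adjusted p = 0.0571). With A_66_P113376 for Casq2, the calsequestrin difference turned to -0.072 (exact permutation test, adjusted p = 0.743).

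**Figure D3:**
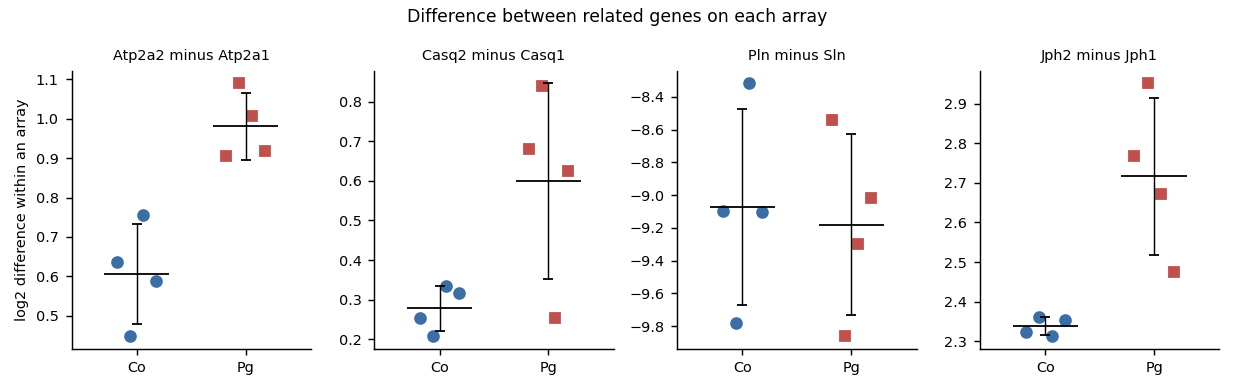
Log2 difference between the genes of each pair on the 4 Co (circles) and 4 Pg (squares) arrays, with group mean (line) and SD (error bar); each panel has its own y axis, which does not start at 0. Co and Pg stand apart for Atp2a2 minus Atp2a1 and for Jph2 minus Jph1, and overlap for Casq2 minus Casq1 and Pln minus Sln.

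The genes also varied from mouse to mouse within the groups, in step with genes of the fastest fibres for some of them. Myh4, the myosin gene of type IIb fibres, was singled out after its values were seen. It read 16.09, 16.97, 13.38 and 16.48 in Co and 11.38, 17.07, 17.01 and 14.38 in Pg, a span of 5.69, with Pg1, Co3 and Pg4 the lowest. The same 3 mice were lowest for Actn3, the alpha-actinin of fast fibres, which spanned 3.52, and for Pvalb, the calcium buffer of fast fibres, which spanned 1.90. The low mice belonged to both groups, and the change of Myh4 between the groups was -0.77 (SE 1.37, q = 0.772, limma).

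Sln followed Myh4 in rank on all 8 arrays. Its Spearman rho was 1 (exact permutation p = 4.96e-05, the smallest that 40320 pairings can give, and 0.000496 adjusted over 10 genes) and its Pearson r was 0.85 (exact permutation p = 0.00632, and 0.0316 adjusted). Without Pg1 and Co3, the arrays farthest from the median of Myh4, r was 0.69. For Casq1 r was 0.93 (exact permutation p = 0.00335, and 0.0316 adjusted) and 0.77 without those arrays, but rho was 0.67 (exact permutation p = 0.0831, and 0.277 adjusted). Since Myh4 was picked for its spread on these arrays, these p-values are not independent evidence. With 4 arrays per group, no relation was tested within a group.

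Atp2a1 had an r of 0.41 with Myh4 over the 8 arrays (exact permutation p = 0.313, and 0.521 adjusted; rho 0.29, p = 0.501 and 0.556 adjusted). Its deviations from the group means had an r of 0.77 with those of Myh4, as a description. Co3, the Co mouse with the least Myh4, had the lowest Atp2a1 of its group, 16.03. Pg3, where Myh4 was at 17.01, had the highest Atp2a1 of the Pg arrays, 15.79. The part of fast fibres in the lower Atp2a1 of Pg mice was not tested. Ryr1 had an r of 0.06 with Myh4 (exact permutation p = 0.871 before and after adjustment; rho -0.36, p = 0.389 and 0.556 adjusted). For the other 6 genes the adjusted p was 0.253 or above for r and 0.277 or above for rho.

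**Figure D4:**
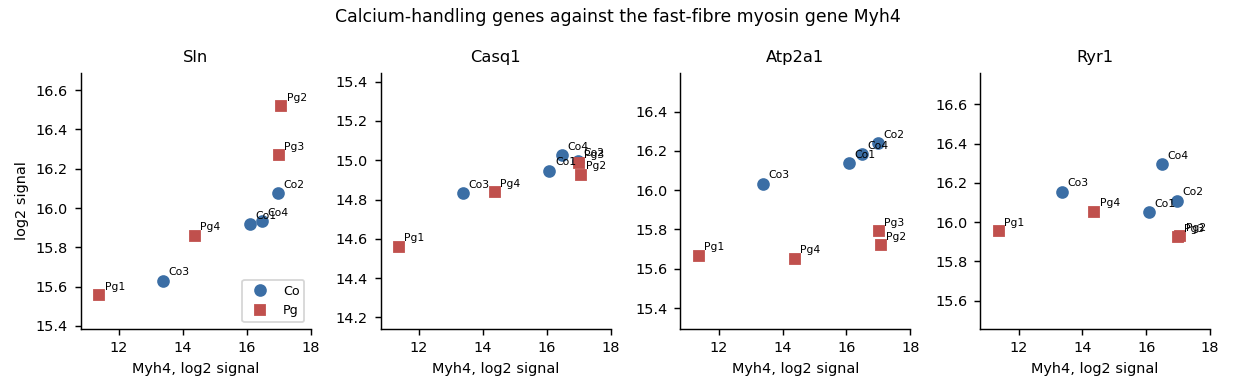
Log2 signal of Sln, Casq1, Atp2a1 and Ryr1 (y axes, windows of the same height) against that of Myh4 (x axis) on the 4 Co (circles) and 4 Pg (squares) arrays. Sln and Casq1 rise with Myh4 over both groups, every Pg array has a lower Atp2a1 than every Co array, and Ryr1 shows no such slope.

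Among the 10 genes themselves, the deviations from the group means had a median r of 0.25 over 45 pairs, from -0.71 for Atp2a1 with Pln to 0.88 for Casq1 with Sln. Jph1 moved with Cacna1s at r = 0.87, with Jph2 at 0.72 and with Ryr1 at 0.66. These are descriptions over 8 arrays that share a slide, a scan and the normalization. Of 22323 tested genes of other names, the 1 with the highest r over the 8 arrays was Mcm2 for Jph1 (r = 0.99), Ifi44 for Casq2 (0.98), Zw10 for Cacna1s (0.97) and Depdc5 for Atp2a2 (0.95). The best match of the other 6 genes was an array entry with a predicted gene or transcript name, with r from 0.96 for Jph2 to 0.99 for Atp2a1. With so many genes and 8 arrays, a best r of this size was found for each of the 10.

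Other genes of the pathway were read from 4 lists with 59 genes, of which 53 were tested, 4 had no probe by that name (Mrln, Strit1, Arln and Erln), and the rest were too dim. Of the 53 genes, 0 were DEGs, where 1.61% of all tested probes were. A q under 0.1 was reached by 3, or 5.66%, where 7.82% of all tested probes reached it, and 28 had a negative and 25 a positive change, with a median of -0.02. On the probe that stands for each gene, 0 of 12 channel and coupling genes reached that q, although 1 of the 6 tested probes of Cacna2d1, a subunit of the sensor complex, did. The smallest p was 0.051 for Stac3, which links sensor and channel (0.21, q = 0.221). The next were Cacng1, a subunit of the sensor complex (-0.27, q = 0.259), and Cacna1c, the heart form of the sensor (0.15, q = 0.260).

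Of 16 junction, triad and lumen genes, 1 had a q under 0.1. This was Asph, the locus of junctin, on 1 of its 3 tested probes (0.33, SE 0.08, q = 0.0786, limma), with values higher in every Pg array than in every Co array. The gene also encodes an aspartyl hydroxylase, and the files do not say which product the probe reads. The calcium-binding gene Hrc had a change of 0.18 (q = 0.130), and Jph3, the brain junctophilin, was dim, above background on 6 arrays, with a change of 0.58 (q = 0.124).

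Of 10 tested pump and pump regulator genes, 1 had a q under 0.1 and was lower. Ppp1r1a, an inhibitor of protein phosphatase 1, changed by -0.36 (SE 0.08, q = 0.0723, limma), with no overlap between the groups. Atp2a3, the pump gene of blood and other non-muscle cells, had a change of -0.30 (q = 0.102) and Camk2a, a calcium-dependent kinase gene, of -0.54 (q = 0.122), both just above the threshold. Of 15 tested genes of store entry, buffers and exchange, Itpr3, a release channel of the endoplasmic reticulum in non-muscle cells, was higher in Pg (0.26, SE 0.06, q = 0.0660, limma). Its relative Itpr1 had a change of 0.23 (q = 0.157), and Stim2, a sensor of store filling, of 0.17 (q = 0.192).

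Casq2, Pln, Jph2 and Atp2a2 are also heart genes, and heart muscle markers were read beside them. Of 10 heart genes listed, 7 were tested, 6 had a positive change, and 2 were higher with a q under 0.1, where 1.82% of all tested probes were higher at that q. These were Mybpc3, a myosin-binding protein gene and the only DEG among the marker lists (0.78, SE 0.17, q = 0.0624, limma), and Myh6, the alpha myosin gene (0.26, SE 0.07, q = 0.0897), on 1 of its 2 tested probes. The Mybpc3 probe was dim, with a mean of 5.41 in Co and 6.19 in Pg, where the median over all tested probes was 8.07. Its change was the highest of the list, and the lowest was that of Tnni3 (-0.30, q = 0.346). The summed signal of the list lay between 13.45 and 13.61 in Co and between 13.54 and 13.86 in Pg (exact permutation test, p = 0.0571). This sum is carried by Myl4, Actc1 and Myh6 (11.91, 11.87 and 11.43 in Co). Tnni3, Mybpc3 and Nppa, at 5.57, 5.41 and 5.05 in Co, hardly enter it. Nppb was well above background on none of the arrays, and Myl7 and Nkx2-5 on 1 at most. The part of these genes in the values of Casq2 was not tested.

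In the other marker lists no gene was a DEG. In the fast-twitch list the changes lay between -0.77 for Myh4 and 0.06 for Myh2 (q = 0.646), in the slow-twitch list between -0.09 for Tnnc1 (q = 0.547) and 0.08 for Mybpc1 (q = 0.410). In the smooth muscle list they lay between -0.20 for Tagln (q = 0.529) and 0.50 for Myocd (q = 0.402), and Lmod1 was above background on no array. In the brown adipocyte list they lay between -0.36 for Ppargc1a (q = 0.431) and 0.59 for Dio2 (q = 0.129), and in the adipocyte list between -0.11 for Lipe (q = 0.617) and 0.35 for Plin1 (q = 0.640). The summed signal of the brown adipocyte list lay between 18.84 and 18.99 in Co and between 18.97 and 19.10 in Pg, a mean 0.13 higher (exact permutation test, p = 0.0571). This sum is carried by Cox8b and Cox7a1 (17.94 and 17.75 in Co), which muscle also expresses, with the next gene, Cidea, at 13.44. That of the smooth muscle list lay between 17.89 and 18.01 in Co and between 17.80 and 17.99 in Pg, and that of the adipocyte list between 17.34 and 17.43 in Co and between 17.24 and 17.54 in Pg. The part of the marker genes in the lower Atp2a1 and Jph1 was not tested.

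**Figure D5:**
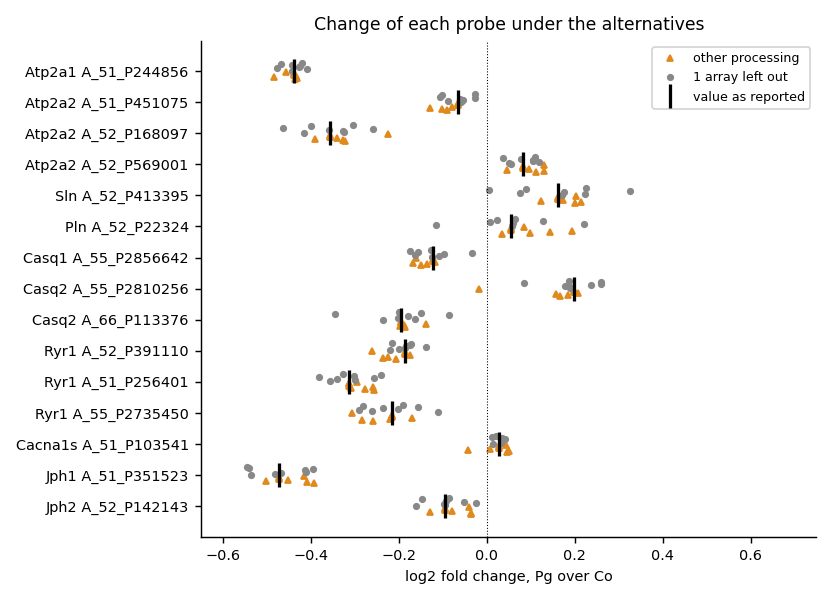
Log2 fold change of each probe (x axis) as reported (black bar), under 8 other ways of processing (triangles; fewer for Casq2 and Atp2a2 probes that the authors' table does not list) and with 1 of the 8 arrays left out (grey points). Atp2a1 stays between -0.49 and -0.41 and Jph1 between -0.55 and -0.39, while Pln, Cacna1s and 1 Casq2 probe have a point on each side of 0.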

How the data were processed

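Total RNA of 8 mice was labelled with Cy3 and hybridized to Agilent one-color arrays. For each array the authors deposited the spot intensity from Agilent Feature Extraction 11.0.1.1 (version from the submitters' processing notes), background-subtracted and detrended, without normalization between arrays. The authors also deposited quantile-normalized log2 values of 28067 entries, each for a different accession. The fold changes, p-values, moderated t and log odds listed there were not used.

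Outlier spots (90 to 150 per array) and control spots were left out, and the processed intensity was averaged over the spots of each of 56605 probes, quantile-normalized, set to at least 1 and converted to log2, in R 4.3.3 with the data.table package, version 1.17.8. Probes well above background on at least 4 of 8 arrays (33819) were tested with limma 3.58.1. The number of arrays limits the precision. Exact permutation tests of a single value ran over the 70 splits of 8 arrays in 4 and 4.

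Gene names are those of the array. Of the 15 probes, 13 had an accession that was in RefSeq (GRCm38.p6 table) under the same symbol. A gene was represented by its probe with the highest mean. Named were all probes of the 10 genes, the 3 smallest p-values and any DEG of each pathway list, marker genes above background on no array, the highest and lowest change of each marker list, and the gene of highest r for each of the 10. Actn3, Cacna2d1, Cidea, Cox7a1, Cox8b, Fabp4, Myh4, Myh6, Pvalb, Tnni2 and Tnnt3, and the comparison of probes by position, were chosen after their values were seen. The sequence and position of 1 Casq2 probe are not reported here. The 10 genes and all lists were chosen with earlier results of these data known.

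Alternatives were normexp background correction of the mean signal (offset 50), the raw median signal, no normalization, 75th percentile scaling, probes above background on all 8 arrays, no filter, the replicate number as a block, the authors' table, and leaving out each array. The other Atp2a2 and Casq2 probes in the gene pairs were added after seeing the data.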

Additional observations from a re-analysis of the deposited data

Results flagged for a closer look

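The Cacna1s signal of array Co1, 16.70, stood apart from the other 3 Co arrays, which lay at 16.75 each, with a gap of 0.92 of the range of the group. It was the only value flagged among 38 groups of 4 arrays checked, and chance flags about 1 in 20 such groups.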

How the results depend on the processing

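No member probe was a DEG under any alternative. The count of the 15 probes with a q under 0.1, 2 as reported, was 3 with the median signal (Atp2a1 and 2 Ryr1 probes), 1 with the 75th percentile scaling, 1 without a filter and 0 without normalization, and lay between 0 and 2 with 1 array left out. The deviations of same-numbered arrays had an r of 0.06, -0.03, -0.07 and 0.18. Such arrays were each other's best match for replicates 1 and 4, and not for 2 and 3. The replicate number was also the column on the slide. The fit with the replicate block had 0 member probes, 0 pathway genes and 0 of all probes past their thresholds. Atp2a1 had a q under 0.1 in 13 of 16 alternatives and lost it without normalization (0.128), with the replicate block (0.122) and without Co3 (0.107). The median change of the 15 probes lay between -0.16 and -0.053 with 1 array left out, the latter without Pg1.

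The 53 pathway genes held 6 with a q under 0.1 under normexp, 1 without a filter, 0 without normalization and between 0 and 2 with 1 array left out, against 3 as reported. They held 1 DEG with the 75th percentile scaling and between 0 and 1 with 1 array left out. Over all tested probes the DEGs numbered 546 as reported, 94 under normexp, 108 with the median signal, 283 with the 75th percentile, 27 without normalization, 318 with probes above background on all arrays, 106 in the authors' table and between 3 (without Co3) and 697 (without Pg3) with 1 array left out. Of the DEGs, 440 of 546 were lower in Pg as reported, 28 of 94 under normexp, 33 of 108 with the median signal, 146 of 283 with the 75th percentile and 46 of 106 in the authors' table, so the direction of the DEGs as a whole depends on the processing.

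With 1 array left out, Atp2a2 minus Atp2a1 lay between 0.32 and 0.42, Jph2 minus Jph1 between 0.30 and 0.46 and Casq2 minus Casq1 between 0.24 and 0.44. The last was 0.14 (exact permutation test, adjusted p = 0.386) in the authors' table and turned to -0.072 with the other Casq2 probe, an alternative added after seeing the data. Pln minus Sln lay between -0.34 and 0.15 and turned to 0.022 with the 75th percentile and to 0.022 without normalization. Cacna1s turned to -0.043 with the 75th percentile. Pln lay between -0.12 (without Co2) and 0.22 with 1 array left out. Casq2 A_55_P2810256 turned to -0.017 in the authors' table, where 1 entry at a mean of 11.91 stood for the accession, near the mean of both probes (11.96), so the opposite changes of the probes were averaged. That table has no separate value for the other Casq2 probe or for A_51_P451075, so Atp2a2 minus Atp2a1 has none there.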
